A study of Rattus norvegicus with 4 samples.

Results

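The genes described here form the switch of NF-kB signalling and its brake, together with an adhesion molecule and Toll-like receptors of macrophages. The 10 genes are Nfkbia, Icam1, Nfkb1, Nfkb2, Rela, Relb, Tnfaip3, Nfkbiz, Tlr2 and Tlr4. A gene was taken as measured when a gene spot on the arrays carried a RefSeq transcript accession that belongs to it. This held for 7 of the 10 genes, with 8 probes, of 16581 genes named in the same way. Shares below are over the 16419 of those genes with a probe whose spots were usable on all 4 arrays. The accession match gave no probe for Relb, Tnfaip3 and Nfkbiz, and no value is given for them. All 4 samples were cultures of NR8383, a rat alveolar macrophage line obtained by lung lavage of a normal rat, after 20 passages. They were seeded for 48 h in flasks of 25 cm2 and then kept for 4 h with multi-walled carbon nanotubes of the type NRCWE006 at 1 cm2 of nanotube surface per cm2. They form 1 group with replicates 1 to 4, described as biological replicates. Unexposed control cultures of the study were not analysed here, so every value below is a level in exposed cells and none is an effect of the nanotubes.

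NF-kB is a family of dimeric transcription factors held in the cytoplasm by inhibitor proteins of the IkB family. Toll-like receptors at the cell surface and in endosomes bind microbial or damage-derived ligands and signal through adaptors such as MyD88 to the IKK kinase complex, which marks IkB alpha for destruction and frees the dimer. Among the first genes then transcribed are those of IkB alpha (Nfkbia) and of the ubiquitin-editing enzyme Tnfaip3, which end the signal, and that of the adhesion molecule ICAM-1. In alveolar macrophages this circuit is known for the control of cytokine and chemokine genes after contact with microbes and particles.

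Promoter sequence is shown to compare NF-kB motifs between these genes, at the starts that RefSeq annotates in the rat assembly GRCr8. The table of promoters, each 300 bases long with 250 before the annotated start, held 9 of the 10 genes, without Relb. The binding consensus of NF-kB, named kappaB, and the shorter GGAANTTCC were searched on both strands. The consensus was written as GGGRNNYYCC, where R is A or G, Y is C or T and N is any base. Both motifs were chosen with the gene names in view, and GGAANTTCC after the sequences had been seen. A kappaB match was present in 6 of the 9 promoters, against 7.51% of all 33469 promoters in the table. GGAANTTCC was present in 4 of the 9, against 0.872% of all. It overlaps the kappaB match in Nfkbia, Nfkb1 and Nfkbiz, and it is the only one of the motifs found in Icam1. Rela and Tlr4 held neither in this window. Since the genes were picked for their place in NF-kB signalling, these shares describe the set and were not tested.

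The 250 bases upstream of the starts of Nfkbia and Icam1 are printed because these were the genes measured well above background on all 4 arrays. That of Nfkbia lies at chr6:78597073-78597322 on the minus strand and that of Icam1 at chr8:27829595-27829844 on the plus strand, both in GRCr8 and written 5′ to 3′. Capitals mark the bases of either motif.

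Nfkbia: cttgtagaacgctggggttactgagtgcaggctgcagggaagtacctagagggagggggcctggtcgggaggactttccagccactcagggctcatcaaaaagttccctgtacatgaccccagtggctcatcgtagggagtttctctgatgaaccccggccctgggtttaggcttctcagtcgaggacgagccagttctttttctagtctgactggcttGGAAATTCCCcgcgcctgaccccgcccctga

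Icam1: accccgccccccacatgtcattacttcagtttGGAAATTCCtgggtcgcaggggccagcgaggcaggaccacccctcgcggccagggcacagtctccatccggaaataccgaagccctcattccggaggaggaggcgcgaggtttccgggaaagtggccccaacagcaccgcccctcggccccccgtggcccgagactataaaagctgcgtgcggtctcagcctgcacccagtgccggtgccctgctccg

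The match of Nfkbia begins 31 bases before the start, while that of Icam1 begins 218 bases before it. For the other genes, stretches of 30 bases around each kappaB match show how alike the matches are. They lie at chr2:226805440-226805469 (minus strand) for Nfkb1, chr1:255108344-255108373 (plus) for Nfkb2, chr11:58251698-58251727 (plus) for Nfkbiz, chr1:15544130-15544159 and chr1:15544021-15544050 (minus) for Tnfaip3, and chr2:171504743-171504772 and chr2:171504580-171504609 (minus) for Tlr2.

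Nfkb1: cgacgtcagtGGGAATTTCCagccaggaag

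Nfkb2: tggtattttcGGGACTTTCCtaagagcact

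Nfkbiz: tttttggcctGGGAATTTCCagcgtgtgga

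Tnfaip3, upstream match: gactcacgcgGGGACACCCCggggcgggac

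Tnfaip3, paired matches: gactGGAAAGTCCCtcGGAAATCCCCctgt

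Tlr2, upstream match: aggcccttgGGGGAATTCCCatacggagcc

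Tlr2, downstream match: ccctggcctgGGGACGTCCCcttcccgcac

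Nfkbia, Nfkb1 and Nfkbiz carry the same kappaB match, GGGAATTTCC, with Nfkbia on the opposite strand. Nfkb2 and Tnfaip3 share GGGACTTTCC, on opposite strands. The match of Nfkb1 begins at base 4 of the transcript, and those of Nfkb2 and Nfkbiz begin 20 and 13 bases before the start. In Tnfaip3 the matches begin 170, 67 and 55 bases before the start. In Tlr2 overlapping matches begin 206 and 205 bases before it and a further match 42 bases before it. Among textbook NF-kB target genes that are not members, 8 of 20 promoters (40%) held a kappaB match, and among Toll-like receptors and co-receptors that are not members, 0 of 11. A match is a description of letters in the reference and not a measured binding site.

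**Figure D1:**
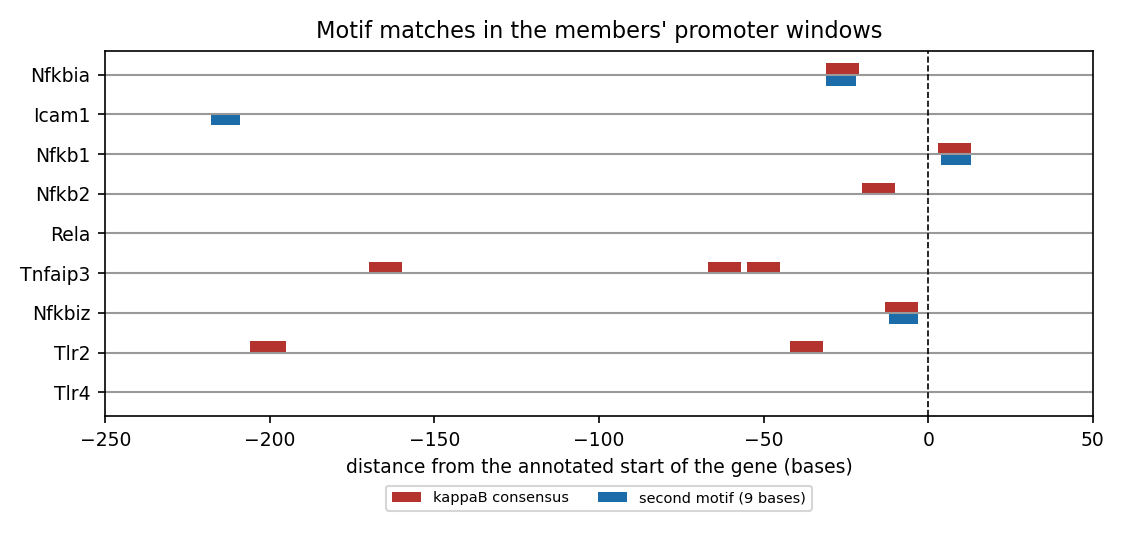
Motif matches in the promoter windows of the 9 members found in the RefSeq table. The x axis gives the distance from the annotated start in bases, red blocks are kappaB matches and blue blocks are matches of the second motif, on either strand; Rela and Tlr4 show none, and the match of Icam1 lies farthest upstream.

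Each culture was hybridised to 1 array in 1 colour (4 arrays in all, which limits precision). Every member probe was printed on 1 spot per array, none of these spots was saturated and none was called an outlier. Signals are background-subtracted intensities as deposited, with the software's own error. A spot was called well above background by the software's flag, and levels are log2 signals relative to the 75th percentile of the array's detected probes. This percentile was 384, 281, 236 and 223 on replicates 1 to 4. Replicate 4 stood apart in its negative control spots: the median signal of its 308 was 4.65, against 2.98 to 3.36 on the others. The median software error of its gene spots was 4.85, against 3.05 to 3.54. These signals are background-subtracted, so they are no measure of the background itself. Of 15 macrophage markers, 7 were well above background on all arrays (Cd68, Fcgr1a, Lyz2, Spi1, Aif1, Tyrobp and Fcer1g), while Mrc1, Csf1r, Itgam, Cd14 and Adgre1 were so on none. Of markers of other cells, 0 of 9 for lung epithelium, 0 of 6 for fibroblasts, 0 of 5 for lymphocytes and 0 of 4 for granulocytes were well above background on all arrays. Of 7 endothelial markers, 1 was, Vwf. Sftpb and Krt8 of lung epithelium and Cdh5 of endothelium were well above background on some of the arrays. Of all named genes 11.9% were so on all arrays, and a count of 0 in lists this short does not show that such cells were absent.

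Of the 7 members measured, Nfkbia and Icam1 were well above background on all 4 arrays (2 of 7, 28.6%), where 11.9% of 16419 named genes were. Nfkb2, Rela and Tlr2 were so on 1 or 2 arrays (3 of 7, 42.9%), against 17.2% of named genes on 1 to 3 arrays. Nfkb1 and Tlr4 were so on no array (2 of 7, 28.6%), as were 71.0% of named genes. By array, 5, 4, 2 and 2 members were well above background on replicates 1 to 4, against 21.0%, 17.6%, 15.8% and 20.3% of named genes. With 7 genes these shares are a description and carry no test.

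**Figure D2:**
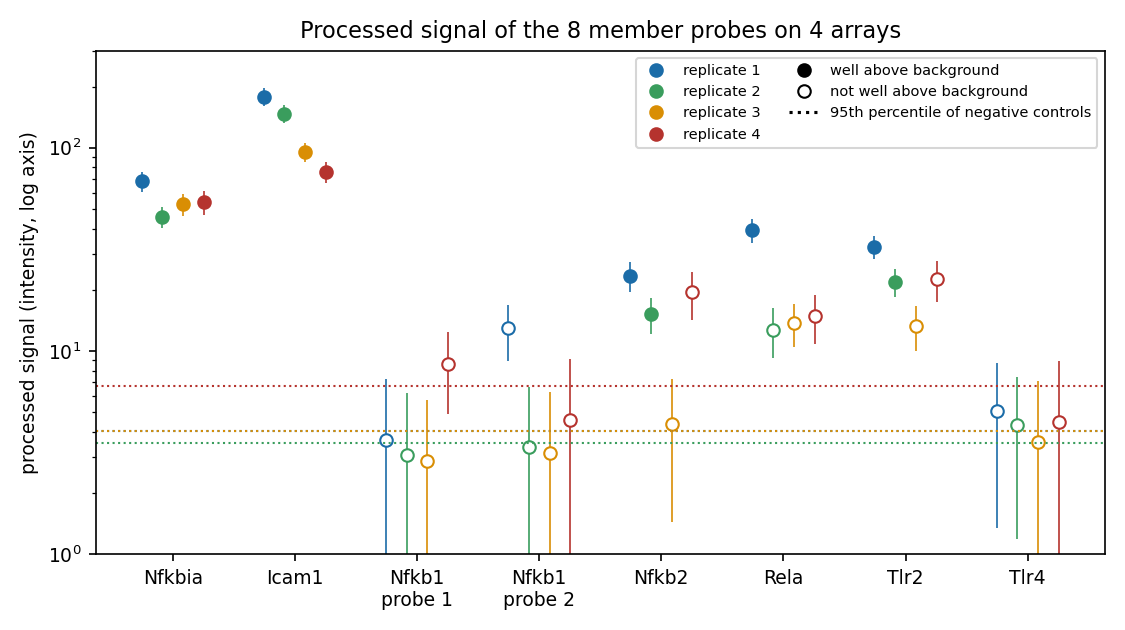
Processed signal (intensity, log axis) of the 8 member probes, with 1 point per array and the software's error as bars, which run below the axis for the dimmest spots. Filled points are well above background and dotted lines mark the 95th percentile of each array's negative control spots; Nfkbia and Icam1 are filled on every array, and Nfkb1 and Tlr4 on none.

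Nfkbia encodes IkB alpha, the inhibitor that is degraded on activation and made anew as feedback. Its signal was 68.2 ± 7.51, 45.5 ± 5.46, 52.6 ± 6.35 and 53.8 ± 7.38 on replicates 1 to 4, where the error is that of the software. The signals spanned 1.5-fold, and replicate 1 was the highest. After scaling, the log2 levels were -2.49, -2.63, -2.16 and -2.05, with a mean of -2.33 ± 0.27 (SD, n = 4). On this scale replicate 4 was the highest and replicate 2 the lowest. The order rests on the scaling: replicate 4 was the lowest after quantile normalization and after scaling by all gene probes, and replicate 1 the highest without scaling. In RNA from a whole culture, fewer cells that carry a transcript and less of it per cell cannot be told apart.

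Icam1 encodes the adhesion molecule ICAM-1 (CD54), the ligand of leukocyte integrins. Its signal was 178 ± 18, 147 ± 15, 95.4 ± 10.1 and 76.0 ± 8.82 on replicates 1 to 4. The signals spanned 2.34-fold, with replicates 1 and 2 above replicates 3 and 4 by more than the software's errors. The log2 levels were -1.11, -0.93, -1.31 and -1.55, with a mean of -1.22 ± 0.27 (SD, n = 4). Scaling thus reduced the span to 1.54-fold. Replicate 4 was the lowest under each of the 6 ways of background correction, spot filter and scaling tried (the reported one included), and replicate 2 the highest under 5, the exception being no scaling.

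The spread of both genes was ordinary for these arrays. The median SD over 1946 detected genes was 0.24 on the log2 scale, and 43.5% of them had a larger SD than Nfkbia and 43.9% a larger one than Icam1. Neither gene ranged over more than 2-fold between the highest and lowest replicate (0 of 2), where 15.3% of detected genes did. Without scaling Icam1 passed that limit, and both did when scaled by all gene probes. Of the 10 other detected genes of the pathway lists below, 6 passed it without scaling and 9 when scaled by all gene probes. Passing it there was therefore not particular to Nfkbia and Icam1. The share of all detected genes was not taken under these settings. A single spot also carries noise of its own. Among probes printed 10 times with signals between 40 and 200, the median SD between spots of an array was 0.176, 0.181, 0.194 and 0.251 on replicates 1 to 4 (log2). The 90th percentile of that SD was 0.279, 0.277, 0.321 and 0.431, so the SD of 0.27 between arrays lay within the range of spot noise. With 1 spot per array, no test of the difference between cultures was possible for either gene.

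The measured signals of Icam1 and Nfkbia, each from 1 spot per array, did not change in parallel across the arrays. The difference of their log2 signals within an array does not depend on any scaling by 1 factor per array. Icam1 minus Nfkbia was 1.38 ± 0.22, 1.70 ± 0.23, 0.86 ± 0.23 and 0.50 ± 0.26 on replicates 1 to 4 (log2, software error). Since the probes differ in response, only the change of this difference between arrays is read, not its size. Replicate 2 had the highest and replicate 4 the lowest difference, and these lay 1.20 ± 0.35 apart, or 2.30-fold. The span was 0.73 after quantile normalization, where replicates 3 and 4 were level at 0.77, and 0.74 with the normexp background correction. It is set by the extremes of 4 arrays. The SD of the difference was 0.53 (n = 4), and the spot noise given above enters it from both probes. Whether the cultures differed in it was not tested. Replicate 4 minus the mean of replicates 1 to 3, relative to the median of this shift over all detected genes, was 0.45 for Nfkbia and -0.37 for Icam1 (log2). These values were 0.11 and -0.31 after quantile normalization and 0.24 and -0.29 with normexp. Before the median was taken off, the shift after quantile normalization was -0.35 for Nfkbia and -0.77 for Icam1, so both were lower on replicate 4 on that scale. Among the detected markers, replicate 4 was the highest in the macrophage genes Cd68 (-3.47, -4.11, -3.83 and -2.71) and Spi1 (-3.58, -3.48, -3.44 and -2.05). These had the lowest mean levels of the detected macrophage markers (-3.53 and -3.14). It was also the highest in the endothelial gene Vwf (-2.54, -2.31, -2.06 and -1.52), which was detected by 1 of 2 probes. Replicate 4 was the lowest in the macrophage genes Fcgr1a (-0.68, -0.69, -0.55 and -0.91), Aif1 (-2.23, -2.25, -2.11 and -2.41) and Fcer1g (1.96, 1.74, 2.06 and 1.67). It was neither in Lyz2 and Tyrobp, so the macrophage markers did not move together. Replicate 4 was also the array with the brightest negative control spots and the largest median software error. The part of these or of the markers in the difference was not tested.

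**Figure D3:**
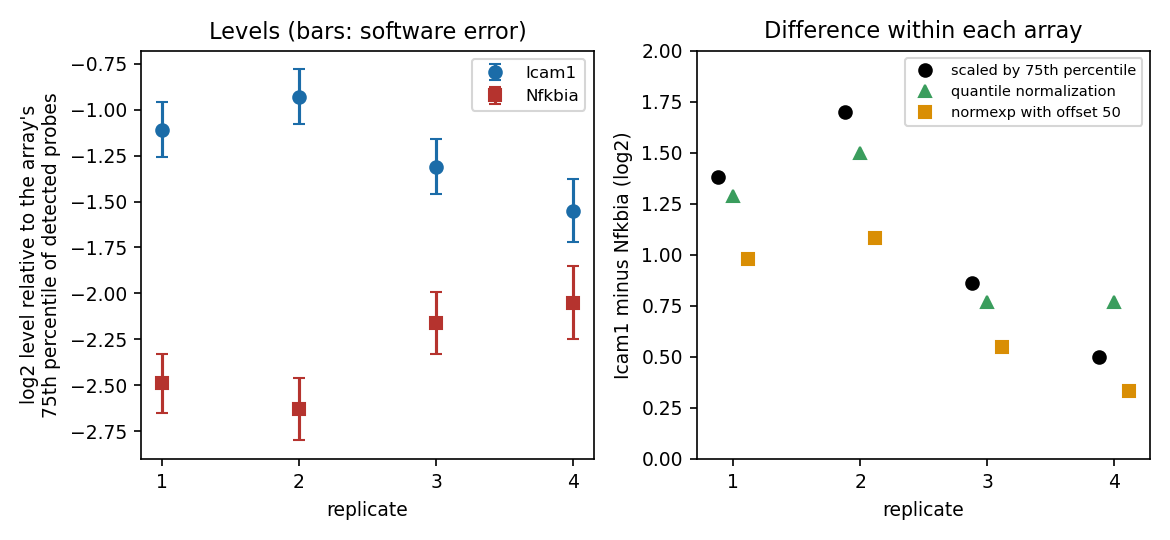
Left, log2 levels of Icam1 and Nfkbia by replicate, relative to the 75th percentile of the array's detected probes, with the software's error as bars; the heights of the 2 probes are not comparable with each other. Right, the log2 difference Icam1 minus Nfkbia within each array after percentile scaling, quantile normalization and normexp; replicate 2 is the highest in all of them, and replicate 4 the lowest, level with replicate 3 after quantile normalization.

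Of the NF-kB subunits, Rela encodes the main activating subunit, and its signal was 39.4, 12.7, 13.7 and 14.8 on replicates 1 to 4. Replicate 1 alone was well above background. Nfkb2 encodes the precursor processed in the non-canonical pathway, and its signal was 23.4, 15.2, 4.37 and 19.4. Replicates 1 and 2 were well above background. Replicate 4 was not, although its signal was higher than that of replicate 2. Its error was 5.14, against 3.11 on replicate 2. The lowest signal that any gene spot called well above background had was 12.8, 13.5, 13.7 and 18 on replicates 1 to 4. Nfkb1 encodes the precursor of the subunit that pairs with RelA, and it had 2 probes, of which neither was well above background on any array. Their signals were 3.63, 3.09, 2.86 and 8.63 for the one and 12.9, 3.36, 3.14 and 4.57 for the other. The probes disagreed on the array that stood out, which was replicate 4 for the one and replicate 1 for the other. On the remaining arrays neither was significantly above 0 by the software's flag, and the signal written for such spots was close to the error (median ratio 0.997 on each array).

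Of the Toll-like receptors, Tlr2 encodes a receptor for bacterial lipoproteins, and its signal was 32.6 ± 4.18, 21.9 ± 3.48, 13.3 ± 3.35 and 22.6 ± 5.22 on replicates 1 to 4. Replicates 1 and 2 were well above background, and replicate 4 with a like signal and a larger error was not. Tlr4, the receptor for lipopolysaccharide, had signals of 5.05, 4.31, 3.56 and 4.47, each within 1.38 times its error. Its signal exceeded that of 97.7%, 97.4%, 74.4% and 42.5% of the negative control spots on replicates 1 to 4. For Tlr2 these shares were 99.4%, 99.7%, 100% and 99.0%. Tlr2 was thus brighter than nearly all negative controls on every array, and Tlr4 was not on replicates 3 and 4.

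The call of the members depended on the limit used. With a limit set by negative controls (their 95th percentile plus 10%, a signal of 4.45, 3.88, 4.44 and 7.38 on replicates 1 to 4), Nfkbia, Icam1, Rela and Tlr2 were above it on all 4 arrays (4 of 7), against 20.5% of named genes. Nfkb2 was above it on 3 arrays, Tlr4 on 2 and each probe of Nfkb1 on 1, so every measured member was above it on at least 1 array, whereas 39.9% of named genes were above it on none. A call of not well above background was therefore not read as a level of 0. Passing this limit on 1 or 2 arrays, as Nfkb1 and Tlr4 did, does not show that the transcript was present either. Where Rela is taken as measured in this way, it ranged over 2.28-fold between replicates after scaling.

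Other genes of the pathway were counted in 6 lists, and 12 of the 95 list genes measured were well above background on all arrays (12.6%, against 11.9% of named genes). Without the members these were 10 of 88 (11.4%). Cd14 and the genes named below as well above background on 1 to 3 arrays were chosen after their values were seen. The median SD of the 10 was 0.26, against 0.24 for all detected genes.

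Among Toll-like receptors and co-receptors, 0 of 15 genes were well above background on all arrays. Tlr2, Tlr5, Tlr6 and Ly96, the protein that presents lipopolysaccharide to Tlr4, were so on 1 or 2 arrays. Tlr1 and Tlr3 were among 11 of the 15 genes well above background on no array, where 71.0% of all named genes were so on none. Cd14, which hands lipopolysaccharide on to the complex of Ly96 and Tlr4, was also among the 11. Tlr5, the flagellin receptor, was well above background on replicate 4 alone, with signals of 3.72, 3.20, 6.63 and 20.4.

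Adaptors of Toll-like and TNF receptors were well above background on all arrays in 5 of 18 cases (27.8%). Myd88, the adaptor used by most Toll-like receptors, had levels of -0.54, -0.72, -0.69 and -0.88 on replicates 1 to 4, with a mean of -0.71 ± 0.14 (SD, n = 4). Tradd, the adaptor of the TNF receptor, had a mean of -2.31 ± 0.30 and Ube2n, the enzyme that builds signalling ubiquitin chains, -2.87 ± 0.55 (SD, n = 4). Rbck1 and Sharpin, both subunits of the linear ubiquitin ligase, had means of -1.27 ± 0.24 and -1.85 ± 0.17 (SD, n = 4). Ube2n and Ccl2 were the 2 of 10 list genes beside the members that ranged over more than 2-fold, where 15.3% of all detected genes did. This count was 1 with normexp (Ccl2), 4 after quantile normalization, 9 with all gene probes as reference and 6 with no scaling. With all gene probes as reference, replicate 4 was the lowest in each of the 9. The share of all detected genes was not taken under these other settings, so the counts are not read as a result about the list genes. Ube2n had -2.62, -3.22, -2.22 and -3.44, and only 1 of its 3 probes was well above background. Ticam2 and Irak2 were well above background on no array.

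In the list of the IKK complex and NF-kB subunits, 0 of 9 genes were well above background on all arrays. Beside Rela and Nfkb2, the regulatory subunit gene Ikbkg (1 of 2 probes) was so on replicate 1, with signals of 18.3, 12.2, 6.43 and 4.89, and Ikbke on replicates 1 and 2, with 37.7, 27.1, 16.6 and 13.8. The genes of the catalytic subunits, Chuk and Ikbkb, were so on no array.

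Of the IkB proteins and negative regulators, Nfkbia was the only one of 16 genes measured that was well above background on all arrays (6.25%). This count was 3 without replicate 3 and 2 without replicate 4, against 12.3% and 14.8% of named genes. Nfkbib, a second IkB gene, was well above background on 3 arrays, with signals of 20.1, 16.6, 13.3 and 36.8. Socs3, a feedback inhibitor of cytokine receptors, was so on the same arrays in 1 of its 2 probes, with 25.6, 17.8, 12.9 and 34.8. In both genes replicate 3 was the one that missed the call. Otulin, an enzyme that removes linear ubiquitin chains, missed it on replicate 4 with 24.6, 16.3, 16.0 and 19.3 for 1 of its 3 probes. Nfkbie and Bcl3 were well above background on no array.

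Textbook NF-kB target genes were well above background on all arrays in 7 of 29 cases (24.1%). Beside Nfkbia and Icam1 these were Tnf, encoding tumour necrosis factor, the chemokine genes Ccl2, Ccl3 and Ccl4, and Cd44, the hyaluronan receptor. The means were -2.73 ± 0.28 for Tnf, -1.81 ± 1.13 for Ccl2, 0.23 ± 0.19 for Ccl3, -2.02 ± 0.28 for Ccl4 and -1.10 ± 0.18 for Cd44 (SD, n = 4). Tnf and Cd44 were each detected by 1 of 2 probes. The 7 genes did not share 1 pattern over the arrays. Replicate 4 was the highest in Nfkbia, Ccl2, Ccl3 and Ccl4 and the lowest in Icam1 and Cd44, while replicate 1 was the highest in Tnf. Of the 6 ways of processing, replicate 4 was the highest in all 6 for Ccl2, in 4 for Ccl3 and in 3 each for Ccl4 and Nfkbia, and it was the lowest in all 6 for Icam1 and in 5 for Cd44. Vcam1 and Sele, the endothelial adhesion molecules that NF-kB controls together with Icam1, were among 19 of the 29 genes well above background on no array. Of all named genes, 71.0% were so on none.

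In the list of Icam1 relatives and integrin partners, Icam1 was the only one of 11 genes well above background on all arrays (9.09%). Itgb2, the shared chain of the integrins that bind ICAM-1, was so on replicates 1 and 3, with signals of 37.9, 13.1, 21.1 and 5.66. Icam2 and Icam4 were so on no array.

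**Figure D4:**
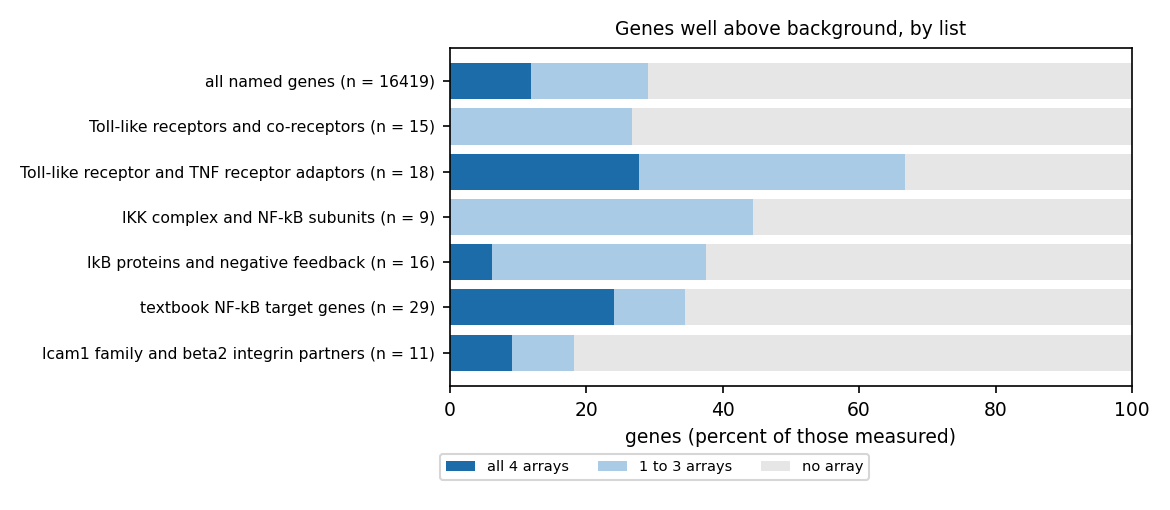
Share of measured genes well above background on all 4 arrays (dark blue), on 1 to 3 arrays (light blue) and on no array (grey), for the 6 pathway lists and for all 16419 named genes. No gene of the receptor list (0 of 15) or of the IKK and subunit list (0 of 9) reached all 4 arrays, against 11.9% of all named genes. The lists are short and these counts were not tested. With the limit from negative controls the counts were 3 and 2, against 20.5% of named genes.

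The genes with the most similar pattern were taken from 1945 other detected genes by the root mean square difference of the 4 deviations from each gene's own mean. For Nfkbia they were Gamt (0.051 on the log2 scale), Ceacam9 (0.053) and Nthl1 (0.054), and 29 genes lay within 0.1. For Icam1 they were Gins1 (0.029), Creb3l1 (0.032) and Dbi (0.037), and 58 genes lay within 0.1. With 4 arrays this likeness is given as a description.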

How the data were processed

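The deposited values are spot intensity on a linear scale from Agilent Feature Extraction (version 11.0.1.1 in the submitters' processing notes). The processed signal is background-subtracted within each array, per the file headers, with no scaling between arrays. Per the labels' protocols, Cy3 was put into copies of 100 ng of RNA whose integrity number exceeded 7.5. Control spots and spots flagged as non-uniform or population outliers were left out, and log2 signals of a probe's spots were averaged. A call on an array needed more than 50% of a probe's spots well above background, and detection needed a call on all 4 arrays. The 75th percentile over detected probes of the same array served as reference, since under 50% of probes were detected. A gene took its detected probe with the highest mean level. Accessions without versions were matched to RefSeq genes of assembly GRCr8, which named 21109 of 45598 probes. The file headers name an older build.

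With 1 group there was no test between conditions. Dixon's gap test for 1 outlying array was applied to 19 series of 4 values. The named genes were all members with every probe, and per list up to the first 6 detected genes and the first 2 above background on no array, members aside, plus the 3 genes most like each detected member. The members and lists were chosen with earlier results of these data known. The scaling and range counts were also run on simulated arrays with less noise than the measured ones. That run checks the calculation and not the error of the counts reported here. Normexp used limma version 3.58.1 in R version 4.3.3, and the rest Python version 3.11.15, numpy version 2.4.6 and pandas version 2.3.3. The alternatives were a limit from negative controls, detection on 3 of 4 arrays, outlier spots kept, other scalings, normexp, averaged probes, no filter on dim probes, and each replicate left out.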

Additional observations from a re-analysis of the deposited data

Results flagged for a closer look

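Tnf, detected by 1 of 2 probes, had 1 replicate far from the other 3. Its levels were -2.31, -2.88, -2.86 and -2.87 on replicates 1 to 4, and the gap of replicate 1 to the nearest other was 0.965 of the whole range, more than Dixon's critical value for 4 samples. Sharpin had levels of -1.92, -1.59, -1.93 and -1.95, and the gap of replicate 2 was 0.905 of the range. Both gaps depended on the scaling. For Tnf the largest gap was 0.757 of the range without scaling, and it lay below the others in replicate 4 after quantile normalization (0.747) and after scaling by all gene probes (0.658). For Sharpin it was 0.15 without scaling and lay in replicate 4 after quantile normalization (0.646). With normexp the gaps were 0.373 for Tnf and 0.432 for Sharpin, and none of these values passed the critical value. Of 19 series of 4 values examined, chance alone marks about 1 in 20 in this way. Neither Nfkbia, Icam1 nor their difference had such a gap.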

How the results depend on the processing

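In all, 72 of 95 recomputed values stayed within 1.5 times the count or within 1 SD of the level, and 23 moved. With the limit from negative controls, 4 of 7 members were detected, 0 were above it on no array and 1 ranged over 2-fold. List genes detected were 29 of 95 against 12, while the share of all named genes rose from 11.9% to 20.5%. By list these were 3 of 15 receptor genes, 9 of 18 adaptors, 2 of 9 in the IKK list, 5 of 16 in the IkB list and 11 of 29 target genes. Members over 2-fold were 0 as reported, 2 when scaled by all gene probes, 1 without scaling and 3 with no filter on dim probes, where dim members entered. The share of all detected genes over 2-fold was 15.3% as reported and was not taken under the other settings. Detection on at least 3 of 4 arrays gave 4 of 16 genes in the IkB list, against 15.5% of named genes. Leaving out 1 replicate gave 1 to 3 of 16, against 11.9% to 14.8% of named genes. The level was 3.31 for Nfkbia and 4.42 for Icam1 when scaled by all gene probes and 5.77 and 6.88 without scaling, where the reference itself changes, and -1.58 and -0.84 with normexp. Leaving out 1 replicate gave levels of -2.31 to -2.03 for Nfkbia and -1.31 to -0.71 for Icam1, with the upper values without replicate 4, where the set of detected probes used for scaling also grew. No paired analysis was possible because there is only 1 group. Signals near background limit what can be said of Nfkb1 and Tlr4.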

Other observations

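Several signalling genes of the pathway lists were well above background on 1 array and not on the others, each measured on a single spot that carried no outlier flag. They were chosen after their values were seen. Of all named genes, 17.2% were well above background on 1 to 3 arrays, whatever their signals. How many of them had a call on 1 array alone, with signals as far apart as those below, was not counted. Replicate 4 had the most probes called, 6476 against 4252 to 5722 on the others. It did not have the most named genes called (20.3%, against 21.0% on replicate 1). Tnfrsf1b, encoding the second TNF receptor, had signals of 905, 2.76, 3.28 and 4.75 on replicates 1 to 4, and on replicates 2 to 4 it lay below the limit set by negative controls. On replicate 4 alone, Irak4, a kinase downstream of Myd88, had 58.7 against at most 3.65 elsewhere. Cd40, a co-stimulatory receptor, had 58.0 against at most 3.97 in 1 of its 2 probes. Birc2, a ubiquitin ligase of the TNF receptor complex, had 43.3 against at most 6.74 there. Irak1, another kinase of the Myd88 complex, had 65.7 on replicate 4 against at most 17.5, in 1 of its 2 probes.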
